A study of Mus musculus with 6 samples.

Results

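Cytosolic ribosomal protein genes were taken as the protein-coding genes of GENCODE release M39 whose symbols begin with Rpl or Rps followed by a number, with Rpsa, Rplp0, Rplp1 and Rplp2 added and S6 kinases, pseudogenes and Gm genes left out. There were 85 such genes among the 52230 annotated genes of the count tables, 52 of the large (60S) and 33 of the small (40S) subunit. They were compared between hippocampi of Mov10 Deletion and wild-type (WT) mice at postnatal day 0. The helicase MOV10 acts on RNA in microRNA-guided silencing. Mov10 Deletion mice carry a conditional Mov10 allele with loxP sites around exons 6 and 7, Cre recombinase expressed from Emx1, a gene of the excitatory forebrain lineage, together with a germline mutant Mov10 allele. WT mice carry neither and are described as C57BL/6. The conditional allele was made in C57BL/6 embryonic stem cells, and no background was found stated for the Mov10 Deletion mice. Each genotype had 3 poly(A)-selected, strand-specific RNA-seq libraries, each made from the pooled hippocampi of at least 2 pups. A fall in such tissue can come from less RNA per cell or from fewer cells of a type, and these cannot be told apart.

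The cytosolic ribosome is built from ribosomal RNA and one copy or a few copies of each ribosomal protein, and the genes are expressed at high levels in every growing cell. Their mRNAs are known for a 5' terminal oligopyrimidine (TOP) tract, a C at the cap followed by a run of C and T, through which mTOR signalling and LARP1 control their translation and stability. Almost all have many processed pseudogenes, which are intronless copies of the mRNA inserted elsewhere in the genome, and in rodents several have a second functional gene. These copies matter for any measurement made with short reads.

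The TOP tract is the sequence feature that sets these genes apart, and the following RefSeq promoter windows (GRCm38.p6, 15 bases before to 15 bases from the annotated start, sense strand) show its variety. They were chosen from the genes named below that have a window with a tract. Rps21 and Rps24 each also have a window without a tract, which is not shown. Capitals mark the first run of C followed by at least 4 C or T that begins within 10 bases of the annotated start.
Rps6: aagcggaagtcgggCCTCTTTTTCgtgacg
Rps15a: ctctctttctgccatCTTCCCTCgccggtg
Rps21: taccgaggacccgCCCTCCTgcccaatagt
Rps24: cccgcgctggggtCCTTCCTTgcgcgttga
Rplp2: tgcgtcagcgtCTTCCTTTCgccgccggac
Rpl13a: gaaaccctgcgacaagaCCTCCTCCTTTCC
Rpl15: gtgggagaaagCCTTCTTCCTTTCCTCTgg
Rpl35: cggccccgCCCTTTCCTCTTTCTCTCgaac
Rpl38: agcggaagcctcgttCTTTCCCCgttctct
Rpl22l1: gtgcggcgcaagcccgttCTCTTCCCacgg

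A promoter window was given for 64 of the 85 genes, with 76 windows in all. A gene was counted when any of its windows matched. In 13 of these genes (20.3%) the annotated start was a C followed by at least 4 C or T, against 3.01% of all 27025 genes with a window. The run could have begun before the start, as it did in Rps6. With such a C anywhere within 10 bases on either side, the figures were 39 genes (60.9%) and 34.4%. Annotated starts are often a few bases away from the true cap site, so the wider search also takes in runs that are no TOP tract. The tract near the start was present in 20 of the 40 genes called lower in Mov10 Deletion that had a window (50%), and in 16 of the 21 tested genes not called lower (76.2%). The letters CCGGAAG, the core bound by ETS factors such as GABP, were found on either strand of the 300-base window in 26 of the 64 genes (40.6%), against 9.93% of all genes. The reverse complement, CTTCCGG, can overlap a pyrimidine run. The letters TATAAA, searched on both strands, were found in 7 (10.9%), against 15.7% of all genes. A match is only a match of letters, not a binding site.

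Of the 85 genes, 81 passed the expression filter of 0.25 CPM (counts scaled by library size) in at least 3 libraries. The 4 that did not are paralogs known from other tissues. Rpl10l, which replaces Rpl10 in male germ cells, and Rps4l were at 0 in all 6 libraries. Rpl39l, another germ-cell paralog, had between 1 and 9 counts, and Rpl3l, a muscle paralog of Rpl3, had between 1 and 4.

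Levels of the 81 genes were compared per length, as TPM (transcript abundance corrected for length) averaged over the 6 libraries. They ran from 44.2 to 2351 TPM with a median of 874, and 66 genes lay above 500 TPM. The highest were Rps24 (2351 TPM), Rplp1 (2189 TPM) and Rps29 (2177 TPM). The lowest were Rpl12 (44.2 TPM), Rpl7l1 (65.2 TPM) and Rps27l (132 TPM). Rpl7l1 is the minor paralog of Rpl7 (889 TPM), and Rps27l is a paralog of Rps27. Rps27l CPM lay between 53.6% and 388% of Rps27 CPM over the 6 libraries. The level of Rps27 depends on a near-copy, described below. Rpl12 has no such paralog but has a near-copy, described below. The tested genes lay on 19 chromosomes.

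Together the 81 genes took 7.10%, 6.85% and 6.74% of all TPM in the Mov10 Deletion libraries and 7.51%, 7.73% and 7.95% in the WT libraries. Their summed level was 18828, 18719 and 18068 CPM in Mov10 Deletion, and 19921, 20972 and 22385 CPM in WT. No Mov10 Deletion library reached the lowest WT library. The mean was 18539 ± 411 CPM (SD, n = 3) in Mov10 Deletion and 21093 ± 1237 CPM (SD, n = 3) in WT, which is 12.1% lower. The large subunit genes summed to 10947 ± 228 CPM against 12373 ± 712 CPM, 11.5% lower, and the small subunit genes to 7591 ± 184 CPM against 8720 ± 525 CPM, 12.9% lower (SD, n = 3 each). The ratio of large to small subunit CPM was 1.44, 1.44 and 1.45 in Mov10 Deletion and 1.43, 1.41 and 1.42 in WT.

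**Figure D1:**
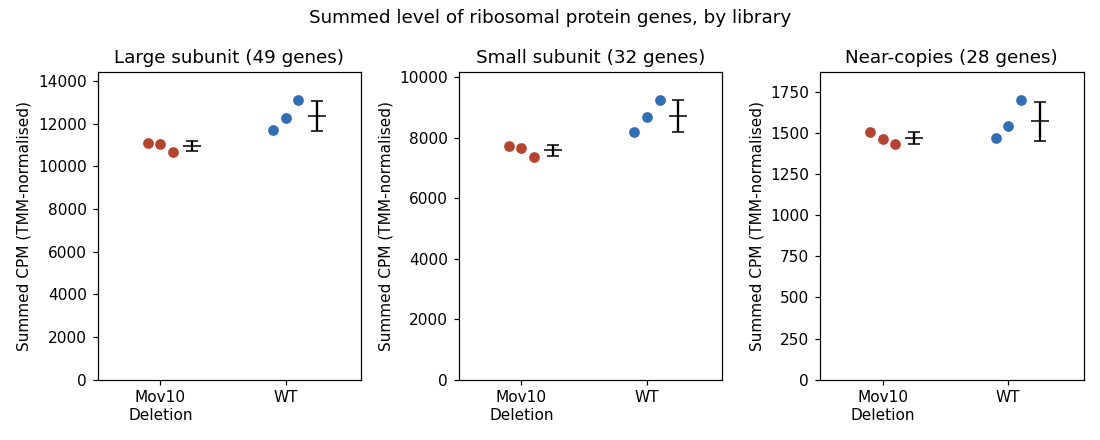
Summed TMM-normalised CPM of the 49 large and 32 small subunit genes tested, and of the 28 near-copies tested, in each library. Points are libraries, and bars are the mean and SD of 3. For both subunits all Mov10 Deletion libraries lie below all WT libraries, while the near-copies of the genotypes overlap.

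The WT libraries varied more than the Mov10 Deletion libraries. The median coefficient of variation of the 81 genes was 6.08% among the WT libraries and 2.67% among the Mov10 Deletion libraries, and 73 genes had the larger SD in WT. WT replicate 3 was the highest of the 6 libraries for 76 genes, and Mov10 Deletion replicate 3 the lowest for 61.

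Gene by gene, 54 of the 81 genes were called lower in Mov10 Deletion and 2 higher, at a Benjamini-Hochberg adjusted p under 0.05 over all 16745 genes tested by limma-trend with 2 factors of unwanted variation. Over all genes, 12.1% were called lower and 12.6% higher. The median log2 fold change was -0.16 for the ribosomal protein genes and 0.01 for all tested genes. The fold was small: 52 of the 54 genes fell between 1.08 and 1.25 times. In CPM not corrected for the factors, all 3 Mov10 Deletion libraries lay below all 3 WT libraries for 65 of the 81 genes, against 21.2% of all tested genes, and these 65 include all 54 genes called lower. Without the factors 49 genes were called lower, against 9.96% of all tested genes, with a median of -0.19.

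The number of calls depended on the fit and on 1 library. Without WT replicate 2, 21 genes were called lower, against 6.89% of all tested genes, with the median at -0.16. With factors taken from the residuals of the genotype fit (RUVr) 68 were called lower, against 16.1% of all tested genes, and the small subunit count went from 19 to 29. With a sex score in place of the factors 8 were called lower, against 3.57%, with the median at -0.17. With no filter on low counts 3 of 83 were called lower, against 1.63%, with the median at -0.19. Rps13, Rps15a and Rps28 were called lower in both of the last 2 fits. Rps28, named here after its values were seen, had a log2 fold change of -0.21 with the sex score (limma, adjusted p = 0.0369) and -0.27 with no filter (limma, adjusted p = 0.0404).

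**Figure D2:**
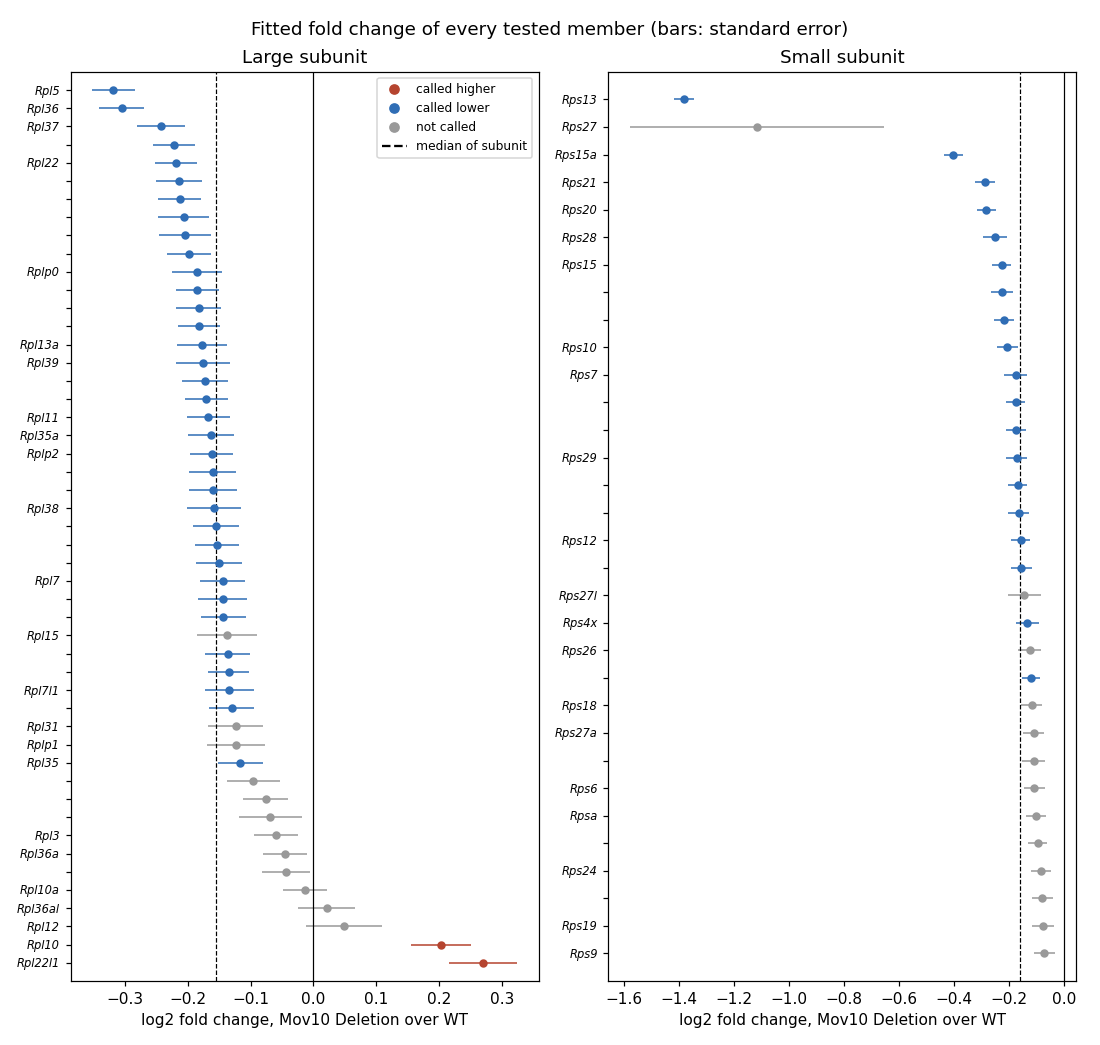
Fitted log2 fold change (Mov10 Deletion over WT) of each tested gene with its standard error, large subunit left and small subunit right, on separate horizontal scales, with the genes described in the text labelled. Dashed lines are the subunit medians of -0.16 and -0.16, and 4 genes lie above 0: Rpl22l1, Rpl10, Rpl12 and Rpl36al.

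In the large subunit, 35 of 49 tested genes were called lower, 2 higher and 12 were not called, with a median log2 fold change of -0.16. Rpl36, a protein of the outer surface of the 60S subunit, had 97.9, 96.6 and 94.9 CPM in Mov10 Deletion against 112, 123 and 136 CPM in WT. The genotypes did not overlap, and the log2 fold change was -0.31 ± 0.04 (SE, limma adjusted p = 0.00213). Rpl37 had 84.9, 83.3 and 80.7 CPM against 93.9, 99.0 and 111 CPM, and its log2 fold change was -0.24 ± 0.04 (SE, limma adjusted p = 0.00545). In both genes the Mov10 Deletion libraries were close together and the WT libraries spread upward.

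The stalk of the large subunit, to which elongation factors bind, is formed by RPLP0 with dimers of RPLP1 and RPLP2. Rplp0 fell, from 714, 752 and 810 CPM in WT to 662, 662 and 631 CPM (log2 fold change -0.19 ± 0.04 SE, limma adjusted p = 0.0146). Rplp2 also fell, with a log2 fold change of -0.16 and a limma adjusted p of 0.0147. Rplp1 had a value of -0.12 with an adjusted p of 0.0907 by limma, and its libraries ran from 252 to 277 CPM in Mov10 Deletion and from 281 to 302 CPM in WT.

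RPL5 and RPL11 form, with 5S ribosomal RNA, the particle that binds MDM2 and releases p53 when ribosome assembly is disturbed. Rpl11 had 241, 235 and 235 CPM in Mov10 Deletion against 256, 268 and 298 CPM in WT, a log2 fold change of -0.17 ± 0.03 (SE, limma adjusted p = 0.0127). Rpl5 had the lowest log2 fold change of the large subunit, -0.32 ± 0.03 (SE, limma adjusted p = 0.00176), with 101, 100 and 102 CPM against 121, 128 and 142 CPM. Part of its sequence is also present in a second expressed locus, given below. This holds for 24.8% of the 150-base windows of its transcript Rpl5-201, which has 3646 bases in GENCODE M39. The deposited files give that transcript 2045 bases, and the share in that version was not measured. Rpl38, known for its part in the translation of Hox mRNAs, fell by 0.16 on the log2 scale (limma adjusted p = 0.0326). Rpl3, which lies near the peptidyl transferase centre, was not called, at -0.06.

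In the small subunit, 19 of 32 tested genes were called lower and 13 were not called, with a median log2 fold change of -0.16. All 32 fitted values were below 0. Rps20 had 152, 150 and 151 CPM in Mov10 Deletion against 174, 191 and 205 CPM in WT, with a log2 fold change of -0.28 ± 0.03 (SE, limma adjusted p = 0.00235). Rps21 had 58.9, 53.1 and 54.3 CPM against 63.6, 70.2 and 74.4 CPM, at -0.29 ± 0.04 (SE, limma adjusted p = 0.00278). Rps15 had 223, 222 and 216 CPM against 250, 261 and 279 CPM, at -0.23 ± 0.03 (SE, limma adjusted p = 0.00483). Again no Mov10 Deletion library reached a WT library.

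Several small subunit genes with well known roles were not called by the same test. RPS6 is the substrate of the S6 kinases that is often used as a read-out of mTOR activity, and Rps6 had 309, 297 and 287 CPM against 308, 326 and 351 CPM (log2 fold change -0.11, limma adjusted p = 0.0671). Rpsa, which also serves as a laminin receptor, was at -0.10 with a limma adjusted p of 0.0795. Rps27a, which is made as a fusion with ubiquitin, was at -0.11 with a limma adjusted p of 0.065.

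Genes mutated in Diamond-Blackfan anaemia lay in both classes. Rps7 (-0.18), Rps10 (-0.21), Rpl35a (-0.16), Rpl5 and Rpl11 fell. Rps19, the gene most often mutated in that disease, had a log2 fold change of -0.08 (limma adjusted p = 0.183), Rps24 had -0.08 (0.128) and Rps26 had -0.13 (0.0608).

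Rps13 had by far the most extreme fold change that was called: 51.9, 50.2 and 50.2 CPM in Mov10 Deletion against 126, 137 and 142 CPM in WT. Its log2 fold change was -1.38 ± 0.04 (SE, limma adjusted p = 2.76e-06), a 2.60-fold fall. RPS13 is a protein of the 40S body that contributes to a bridge between the subunits. Its gene lies at chr7:115930740-115933430 (GRCm39, minus strand). A processed pseudogene, Rps13-ps1, lies at chr8:87774317-87774854 and aligns to the Rps13 mRNA over 522 bases with 2 mismatches and no gap. This copy moved the other way, with 99.9, 97.9 and 95.2 CPM in Mov10 Deletion against 28.0, 30.8 and 36.4 CPM in WT, a log2 fold change of 1.70 (limma adjusted p = 2.76e-06).

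The 2 bases that differ are T499C and A517G, counted from 1 at the 5' end of the 589-base Rps13 transcript, with the Rps13 base first. Both lie in the coding sequence, and each is shown with 20 bases on either side because these letters are what separates the loci over the aligned part. Capitals mark the differing base around which each window is centred, read from the GENCODE M39 transcripts.
Rps13 at position 499: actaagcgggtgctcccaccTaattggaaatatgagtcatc
Rps13-ps1 at the same place: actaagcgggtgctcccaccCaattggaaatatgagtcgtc
Rps13 at position 517: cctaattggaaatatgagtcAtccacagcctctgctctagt
Rps13-ps1 at the same place: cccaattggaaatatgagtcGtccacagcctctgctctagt

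Of the 440 windows of 150 bases in the Rps13 transcript, the length of a read, 91 (20.7%) cover a differing base. Windows that reach beyond the 522 aligned bases can also tell the loci apart and are not counted in this share. Rps13 took 34.2%, 33.9% and 34.5% of the CPM assigned to the pair in Mov10 Deletion and 81.8%, 81.6% and 79.6% in WT, so the share was nearly constant within a genotype. The sum of the pair was 152, 148 and 145 CPM in Mov10 Deletion against 154, 167 and 178 CPM in WT. Summed before the fit with all its near-copies, Rps13 had a log2 fold change of -0.13 ± 0.04 (SE, limma adjusted p = 0.0359), near the median of the ribosomal protein genes. The reads themselves, which would show the bases at these positions in each genotype, were not used here.

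**Figure D3:**
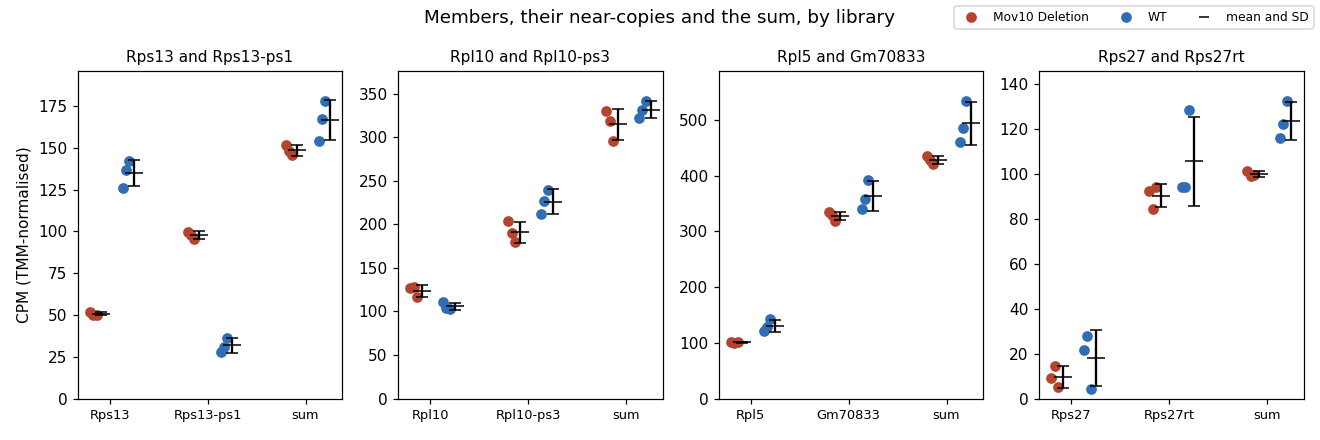
CPM of 4 ribosomal protein genes, of the near-copy of each with the highest level, and of the sum of the pair, by library (points), with the mean and SD of 3. The genotypes are apart in opposite directions for Rps13 and Rps13-ps1. In the sum of that pair they lie closer, with all Mov10 Deletion libraries still below all WT libraries. For Rps27 the libraries of each genotype are scattered, and the sums are not.

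Such near-copies were searched for every gene. A non-member counted as a near-copy when its most abundant transcript aligned best to that gene at 90% identity or more over at least 80% of its length. There were 518, of which 28 passed the expression filter and 13 had a mean of at least 25 CPM, and 13 of the 28 were identical to the parent over the aligned part. Their sum was 1509, 1463 and 1435 CPM in Mov10 Deletion against 1470, 1542 and 1704 CPM in WT, which overlap. Of the 28, 5 were called lower, 3 higher and 20 were not called, against 12.1% lower and 12.6% higher of all tested genes.

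After each gene was summed with its near-copies, 56 of the 81 genes were called lower, against 12% of all features in that fit, and 1 higher, with a median of -0.16. This way of summing was chosen after the near-copies had been seen. It changed the call or the sign for 7 genes in at least one of 3 ways of summing: Rpl10, Rpl12, Rpl15, Rpl31, Rpl35, Rps4x and Rps27. Rpl15 and Rpl31 became called lower (adjusted p = 0.0289 and 0.0348 by limma), while Rpl35 went from 0.0482 to 0.0523. Of the 57 tested genes without a tested near-copy, 40 were called lower and 1 higher, with a median log2 fold change of -0.16.

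Rpl10, an X-linked gene whose protein is added late in 60S maturation, was called higher. It had 126, 128 and 116 CPM in Mov10 Deletion against 111, 104 and 102 CPM in WT (log2 fold change 0.20 ± 0.05 SE, limma adjusted p = 0.0204). Rpl10-ps3, at chr9:50255501-50256268 and annotated as protein coding in spite of its name, is identical to Rpl10 over 96.4% of its length. It had 203, 190 and 179 CPM against 212, 227 and 240 CPM and was called lower (log2 fold change -0.22, limma adjusted p = 0.0112). Of the 150-base windows of the Rpl10 transcript, 82.1% occur in Rpl10-ps3 as well. The sum of the pair was 330, 318 and 295 CPM against 322, 331 and 342 CPM, and the family sum had a log2 fold change of -0.07 ± 0.05 (SE, limma adjusted p = 0.307). The rise of Rpl10 was thus not present once the pair was counted as one.

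For Rpl5, the near-copy is the lncRNA gene Gm70833 at chr7:114304452-114305471, identical to the Rpl5 mRNA over 99.8% of the length of the copy. Its level, 334, 329 and 320 CPM in Mov10 Deletion against 340, 359 and 393 CPM in WT, was above that of Rpl5 itself. With both counted together the log2 fold change of Rpl5 went from -0.32 to -0.16 (limma adjusted p = 0.0161). Rpl12 has a like copy in the lncRNA gene Gm68527 at chr10:29574731-29575389. Rpl12 itself had between 18.3 and 20.2 CPM in Mov10 Deletion against between 18.5 and 19.3 CPM in WT, while the copy had 239, 225 and 220 CPM against 237, 257 and 274 CPM. Rpl12 took between 6.48% and 8.23% of the CPM of the pair. Its log2 fold change of 0.05 became -0.12 (limma adjusted p = 0.0529) in the family sum.

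Rps27, whose protein has a zinc finger, had the largest spread. Its libraries were at 8.93, 14.6 and 5.03 CPM in Mov10 Deletion against at 21.7, 27.9 and 4.07 CPM in WT, so that the genotypes overlapped, and its log2 fold change of -1.12 had a standard error of 0.46 (limma adjusted p = 0.115). Rps27rt at chr9:114811434-114811807, an intronless coding gene identical to it over 92.2% of its length, had 92.2, 84.4 and 94.3 CPM against 94.0, 94.0 and 128 CPM. Their sum was 101, 99.0 and 99.3 CPM in Mov10 Deletion against 116, 122 and 133 CPM in WT. These groups did not overlap, and the family sum fell by 0.27 on the log2 scale (SE 0.04, limma adjusted p = 0.00241).

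The overlap with other annotated transcripts was wider than these pairs. At least 1 window of 150 bases was shared exactly, in sense, with a GENCODE M39 transcript of another gene for 70 of the 81 genes. More than 50% of the windows were shared for 17, of which 10 were called lower. No window was shared for 11, of which 10 were called lower. These shares rest on 1 transcript per gene in its GENCODE M39 version, which for some genes is longer than in the deposited files. Rpl17-201, for example, has 1545 bases in M39 and 775 in the deposited files. For Rps15a, in the group without a shared window, the transcript was the 250-base Rps15a-203, which took a minor part of the counts. The counts of genes could differ with the deposited versions, which were not searched.

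Rpl22 and Rpl22l1, a pair of paralogs of the large subunit, moved in opposite directions. Rpl22l1 is known to be repressed by RPL22 and to take its place in the ribosome when RPL22 is lost. Rpl22 had 196, 203 and 198 CPM in Mov10 Deletion against 224, 234 and 256 CPM in WT, a log2 fold change of -0.22 ± 0.03 (SE, limma adjusted p = 0.00495). Rpl22l1 had 21.4, 21.0 and 19.8 CPM against 16.4, 17.5 and 18.8 CPM, a log2 fold change of 0.27 ± 0.05 (SE, limma adjusted p = 0.0124). Neither overlapped between genotypes, and neither has a tested near-copy. Rpl22l1 CPM stood at 10.9%, 10.3% and 10.01% of Rpl22 CPM in Mov10 Deletion and at 7.33%, 7.48% and 7.37% in WT.

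Rpl22l1 was called higher under 19 of 23 other settings, with adjusted p between 0.0046 and 0.123 over all of them, and its fitted change was above 0 in each. Rpl22 was called lower under 21 of the 23, with adjusted p between 1.25e-05 and 0.0638.

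**Figure D4:**
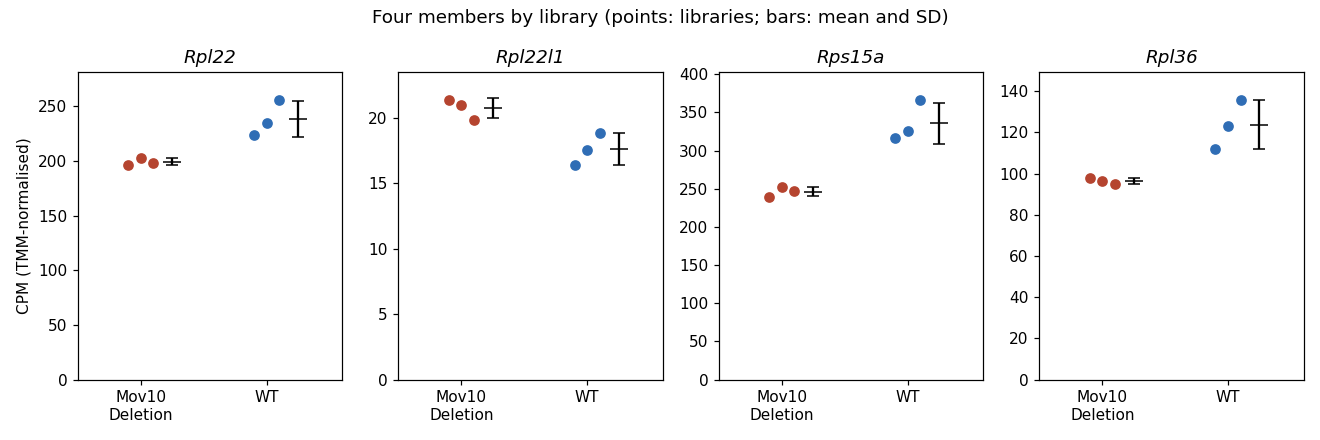
CPM of Rpl22, Rpl22l1, Rps15a and Rpl36 by library (points), with the mean and SD of 3, each on its own axis from 0. Rpl22l1 is the one of the 4 that is higher in Mov10 Deletion, at 19.8 to 21.4 CPM against 16.4 to 18.8 CPM in WT.

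In no other tested pair of paralogs were both genes called in opposite directions. Rpl7l1, a nucleolar relative of Rpl7, fell as Rpl7 did, with log2 fold changes of -0.13 and -0.14 (limma adjusted p = 0.041 and 0.0232). Rpl36al and Rpl36a were not called, at 0.02 and -0.05. Rpl36al CPM stood at 48.16%, 49.32% and 46.63% of Rpl36a CPM in Mov10 Deletion and at 46.55%, 45.10% and 45.23% in WT. Rps27l, a p53 target, had between 13.6 and 14.7 CPM in Mov10 Deletion against between 14.9 and 15.8 CPM in WT, and was not called (log2 fold change -0.14, limma adjusted p = 0.11). Of the 4 tested X-linked members, Rps4x and Rpl39 were called lower, Rpl10 higher, and Rpl36a was not called.

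Rps15a had the lowest log2 fold change after Rps13 among the called genes and has no tested near-copy. It had 239, 252 and 247 CPM in Mov10 Deletion against 316, 325 and 366 CPM in WT (log2 fold change -0.40 ± 0.04 SE, limma adjusted p = 0.00115). The gene lies at chr7:117703595-117715454 on the minus strand, 1770165 bases from Rps13. Between 62.4% and 71.8% of its counts were assigned to one transcript, Rps15a-204, which is 5179 bases long in the deposited files. That transcript had 156.6 ± 4.79 CPM in Mov10 Deletion against 239.6 ± 21.6 CPM in WT (SD, n = 3). The 640-base Rps15a-201 had 70.2 ± 6.01 CPM and 76.0 ± 2.90 CPM (SD, n = 3). On the log2(TPM + 0.5) scale, which weighs the short transcripts more, the log2 fold change of the gene was -0.25 (limma adjusted p = 0.0227). Transcript usage of Rps15a was not called (diffSplice adjusted p = 0.263). The neighbouring gene Arl6ip1, on the same strand, also fell (log2 fold change -0.31, limma adjusted p = 0.0026).

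Transcript usage, meaning the share of a gene's counts taken by each of its transcripts, was called for 7 of the 74 genes with at least 2 tested transcripts (limma diffSplice, Simes p, adjusted over 10338 genes), against 9.57% of all genes in that test. The 7 were Rpl13a, Rps9, Rps18, Rpl10a, Rpl22l1, Rps12 and Rpl5. Minor transcripts of Rpl13a, Rps9 and Rpl22l1 differed between genotypes. Whether the calls rested on such transcripts alone was not tested. Rpl13a-212, annotated for nonsense-mediated decay, had 0.144 ± 0.0304 CPM in Mov10 Deletion against 1.03 ± 0.337 CPM in WT (SD, n = 3), beside 327 and 377 CPM for the gene. Rps9-203 had 0.212 ± 0.0353 CPM against 0.592 ± 0.124 CPM (SD, n = 3). Rpl22l1-204, also annotated for nonsense-mediated decay, had 1.23 ± 0.181 CPM against 2.23 ± 0.996 CPM (SD, n = 3), while the gene rose. The main transcript of that gene, Rpl22l1-206, took 61.5%, 60.5% and 59.9% of its counts in Mov10 Deletion. In WT that share was 58.1%, 50.9% and 54.4%. Without WT replicate 3 no member was called by diffSplice, with 9 at an unadjusted p under 0.05, against 4.4% of all genes called, and without WT replicate 2 it was 1, against 3.04%. Without Mov10 Deletion replicate 1 or 3, 4 and 3 were called, against 8.39% and 7.27%. With a filter of 1 CPM it was 15 of 70, against 10.4%. Transcripts annotated as retained introns took 1.70%, 1.67% and 1.88% of the counts of the 85 genes in Mov10 Deletion and 1.58%, 1.47% and 1.43% in WT.

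Ribosomal protein mRNAs are short. Of the 39 tested members whose most abundant transcript was under 700 bases, 27 were called lower and the median log2 fold change was -0.17. Of the 504 other coding genes of that length, 33 (6.55%) were called lower and 11.7% higher, with a median of 0.05. The median difference between length and effective length, which follows the mean fragment length, was 248, 243 and 240 bases in Mov10 Deletion and 244, 241 and 241 bases in WT.

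Related genes were followed through lists of known function. Each count below stands against 12.1% called lower and 12.6% called higher of all tested genes. Of 3 ribosomal protein genes that the naming rule misses, 2 were called lower and 1 was not called. Of 22 other genes with a TOP mRNA, 10 fell and 12 were not called, with a median log2 fold change of -0.13. Eif4b, an initiation factor that stimulates the helicase eIF4A, had 310, 322 and 325 CPM in Mov10 Deletion against 412, 413 and 460 CPM in WT (log2 fold change -0.39 ± 0.04 SE, limma adjusted p = 0.00127). Eif3f, a subunit of eIF3, was at -0.19 (limma adjusted p = 0.00874).

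Ribosome biogenesis factors, which process ribosomal RNA and assemble the subunits, did not follow the ribosomal proteins: of 106, 20 were called higher, 9 lower and 77 were not called, with a median of 0.05. Utp20, of the small subunit processome, had 45.0, 42.2 and 42.7 CPM in Mov10 Deletion against 34.8, 33.5 and 32.6 CPM in WT (log2 fold change 0.34 ± 0.04 SE, limma adjusted p = 0.00226). Rrp12 was at 0.31 ± 0.05 (SE, limma adjusted p = 0.00423). Of 31 regulators of ribosomal protein mRNA translation and transcription, 4 fell, 3 rose and 24 were not called. Among all tested genes, 12.1% were called lower and 12.6% higher, so these counts do not set the list apart. Akt1s1, the mTORC1 inhibitor PRAS40, was at -0.24 and Trp53 at -0.23 (limma adjusted p = 0.00549 and 0.00676). Larp1 was at 0.06 and Mtor at 0.07, neither called. Of 14 ribosome quality control genes, 2 rose (Edf1 and Ascc2, log2 fold changes 0.16 and 0.17) and 12 were not called. That is near the 12.6% called higher of all tested genes. Of 78 mitochondrial ribosomal protein genes, a list added after the others, 5 were called lower and 3 higher, with a median of -0.03.

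The libraries held between 71400300 and 86207971 counts. Mov10 itself had 2.09 to 2.45 CPM in Mov10 Deletion against 4.75 to 4.81 CPM in WT (log2 fold change -1.11, limma adjusted p = 0.00115). Of the marker lists, the summed levels of progenitor and proliferation, astrocyte and pyramidal neuron genes did not overlap between genotypes. Progenitor and proliferation genes had 1064 to 1168 CPM in Mov10 Deletion against 1194 to 1231 CPM in WT (8 of 14 called lower, 2 higher). Astrocyte genes had 1949 to 2053 CPM and 1579 to 1807 CPM (4 of 10 called higher). Pyramidal neuron genes had 3994 to 4132 CPM and 3672 to 3768 CPM (2 of 15 called higher, 1 lower). The median log2 fold change of the pyramidal neuron genes was -0.04, with 9 of 15 below 0, which is opposite to the direction of their sum. For comparison, 12.1% of all tested genes were called lower and 12.6% higher. The summed levels overlapped for erythroid genes, with 213 to 295 CPM and 247 to 309 CPM, though 3 of 6 were called lower and the median log2 fold change was -0.33, and for choroid plexus genes, with 3.59 to 54.6 CPM and 10.5 to 19.0 CPM (1 of 6 called lower). The part of all these lists in the fall of the ribosomal protein genes was not tested. The sex score (mean log2 CPM of Ddx3y, Eif2s3y, Kdm5d and Uty less that of Xist) was 7.70 and 4.78 in Mov10 Deletion replicates 1 and 3, and lay between -5.90 and -2.39 in the other 4 libraries.

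**Figure D5:**
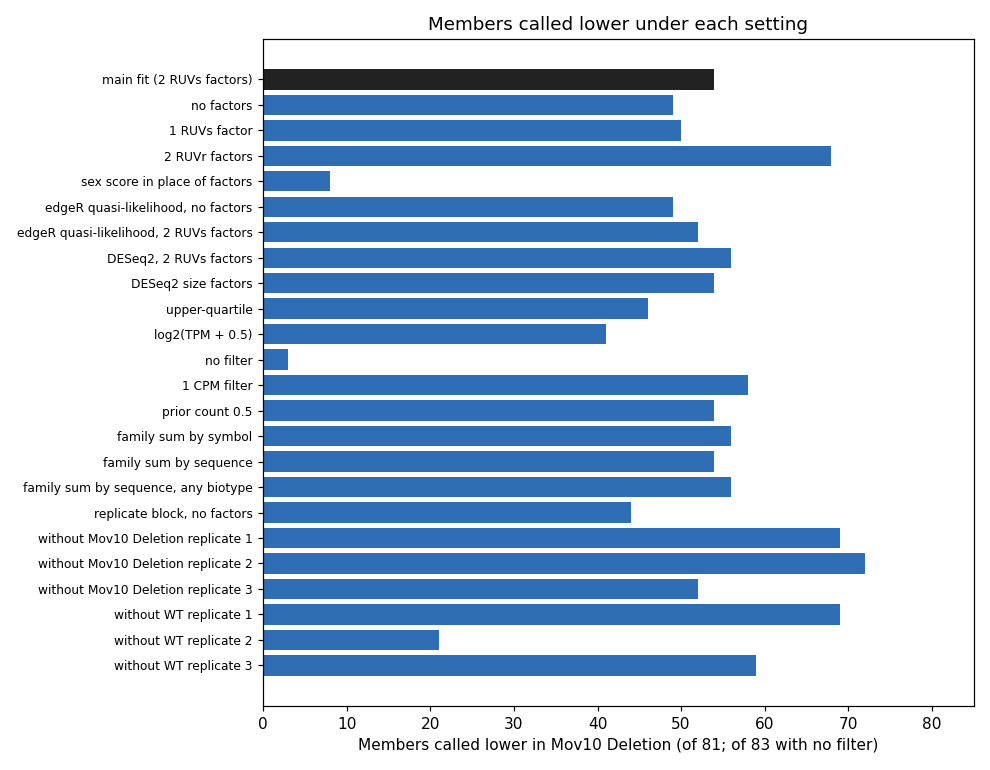
Number of ribosomal protein genes called lower in Mov10 Deletion (horizontal axis from 0) under the main fit, in black, and under each of 23 other settings. The count was between 41 and 72 under 20 of these, and 21 without WT replicate 2, 8 with a sex score and 3 with no filter on low counts.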

How the data were processed

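RNA was measured in 6 libraries, 3 per genotype, and groups and replicate numbers were read from the sample titles. The authors ran Salmon 1.4.0 by selective alignment against a decoy-aware GRCm39 index, whose annotation release was not given in the sources consulted. The deposited files hold, per transcript, the estimated count (not normalized), the TPM (corrected for effective length and library size, computed by the authors) and the length and effective length. Reads that match several loci are divided among them by the authors' model, so genes with near-identical copies are uncertain.

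Transcripts were matched to GENCODE M39 by identifier without version (137570 of 139225), and estimated counts were summed per gene. Unmatched transcripts held at most 0.600% of the counts. The main test took these steps from the study: TMM, 0.25 CPM in at least 3 libraries, limma-trend (limma 3.58.1, edgeR 4.0.16, R 4.3.3) on log2 CPM, and 2 factors of unwanted variation by the RUVSeq approach, with Benjamini-Hochberg adjustment at 0.05. The sources used here do not state the RUVSeq function, the control genes or the prior count. RUVs, written out in R with all tested genes as controls, and a prior count of 2 were chosen here, with RUVr as an alternative. The fit left 2 residual degrees of freedom. The p-values measure the spread between pools that the factors left. Alternatives included edgeR's quasi-likelihood test and DESeq2 1.42.0. Fold changes are differences of log2 CPM, CPM are TMM-normalized without factor correction, and errors cover these libraries only. The fit was also run on simulated counts with a simpler unwanted variation, which does not measure its error rate on these data. Near-copies were aligned with blastn.

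The members and lists were chosen with earlier results of these data known. Named genes were the called-higher members, the 5 smallest p and 3 lowest fold changes per subunit, the 3 highest and lowest TPM, members failing the filter, paralog pairs, stalk and 5S genes, 6 genes of known role, transcript usage calls, genes whose call or sign changed with near-copies, and the 2 smallest p of each related list. Further genes were added after their values were seen. Some genes that this rule chose are not reported here.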

Additional observations from a re-analysis of the deposited data

How the results depend on the processing

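The direction of the median log2 fold change of the ribosomal protein genes was negative under all 23 alternatives, between -0.24 (without WT replicate 1) and -0.13 (without Mov10 Deletion replicate 3). The number called lower was 54 in the report. With a sex score in place of the factors it was 8 (2 large, 6 small subunit), against 3.57% of all tested genes, and 0 were called higher by limma, with 2 at an unadjusted p under 0.05. With no filter on low counts it was 3 of 83 (0 large, 3 small subunit), against 1.63% of 29469 genes tested, and 0 were called higher, with 2 at an unadjusted p under 0.05. Over the fits that leave out 1 library it ran from 21 to 72, with 11 to 41 in the large and 10 to 31 in the small subunit, against 6.89% to 18% of all tested genes, and 1 or 2 called higher. With 2 RUVr factors 29 small subunit genes were called lower, against 16.1% of all tested genes. One gene was called higher, in place of 2, on log2(TPM + 0.5), with near-copies summed by symbol or by sequence with any biotype, and with a replicate block. The cause of these shifts was not tested.

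The members with a transcript usage call went from 7 of 74 (against 9.57% of all genes) to 15 of 70 with a filter of 1 CPM (against 10.4%), and from 0 to 7 when 1 library was left out. Signs turned for Rpl10 (-0.067 with near-copies summed by symbol, -0.067 with any biotype), Rpl12 (-0.12 with any biotype), Rpl10a (0.0086 with upper-quartile scaling, and from -0.058 to 0.0019 when 1 library was left out) and Rpl36al (from -0.014 to 0.061 when 1 library was left out); of these only Rpl10 was called in the report. The replicate numbers did not pair the libraries, since deviations of same-numbered libraries correlated at 0.01, -0.07 and 0.04. With the replicate block, and no factors, 44 members were called lower, against 9.36% of all tested genes.

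Libraries hold at least 71400300 counts, so counting error is small for most members, and the limit is the 3 pools per genotype, the division of reads among copies, and WT libraries that differ among themselves.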
